A study of Rattus norvegicus with 6 samples.

Results

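The muscle acetylcholine receptor and the genes that build the neuromuscular junction were followed in the skeletal muscle of newborn rats. The rule listed 10 genes, which are the receptor subunits *Chrna1*, *Chrnb1*, *Chrnd*, *Chrne* and *Chrng*, and the junction genes *Musk*, *Rapsn*, *Ache*, *Agrn* and *Dok7*. A row on the array could be matched by RefSeq accession for 8 of them, each by a single row, out of 26299 genes and unnamed transcripts tested. *Rapsn* and *Dok7* had no matched row and were not analysed here.

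Total RNA came from the skeletal muscle (soleus and gastrocnemius together) of 3 lower birth weight (LBW) and 3 average birth weight (ABW) pups, all male Wistar rats aged 1 day, with 1 single-colour array per pup. LBW pups were in percentiles 5 to 25 of birth weight. The ABW pups are the newborn controls of the labels, which give percentiles 25 to 75, whereas the study's methods name a narrower range. The labels give no treatment, and the groups are defined by birth weight alone. The labels do not say which pups shared a litter, so that p-values measure the spread between these pups only. Values are log2 signals, on which a difference of 1 is a doubling. The brightness of each gene depends on its own probes, so a gene is compared between pups and not with other genes.

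The neuromuscular junction is the synapse at which a motor neuron releases acetylcholine onto a muscle fibre. The nerve secretes agrin, which binds Lrp4 on the fibre and activates the receptor kinase MuSK, and MuSK signalling clusters acetylcholine receptors under the nerve terminal. The fetal receptor contains the gamma subunit, which the epsilon subunit replaces as the synapse matures around and after birth. Electrical activity of the fibre represses the receptor genes away from the synapse, through myogenic factors that bind E-boxes in their promoters. At the synapse, ETS factors of the GABP type act on N-boxes in the promoters of some of these genes.

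Every one of the 8 genes had a higher mean in LBW than in ABW pups, by small amounts. The log2 differences ran from 0.15 in *Ache* to 0.41 in *Chrnb1*, with a median of 0.25, compared to a median of -0.02 over all features tested. A higher mean in LBW was seen in 44.4% of all features. None of the 8 was past the threshold of the study, which asks for a change of at least 1.5-fold and p under 0.05 before adjustment, and which 4.27% of all features passed by limma. After Benjamini-Hochberg adjustment by limma 0 of the 8, and 0.0% of all features, had an adjusted p under 0.05. At an unadjusted p under 0.05 there was 1 of the 8 by limma (*Chrnb1*), against 12.4% of all features, and 2 by the methods' test, against 9.51% of all features by that test. The methods' test is the one that the statistics section of the study names and uses the spread of each gene alone. All 3 LBW pups lay above all 3 ABW pups in 2 of the 8 genes, *Chrnb1* and *Chrnd*, and this order was found in 7.27% of all features. The opposite order, in 10.1% of all features, was found in 0 of the 8. The other 6 overlapped between the groups.

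**Figure D1:**
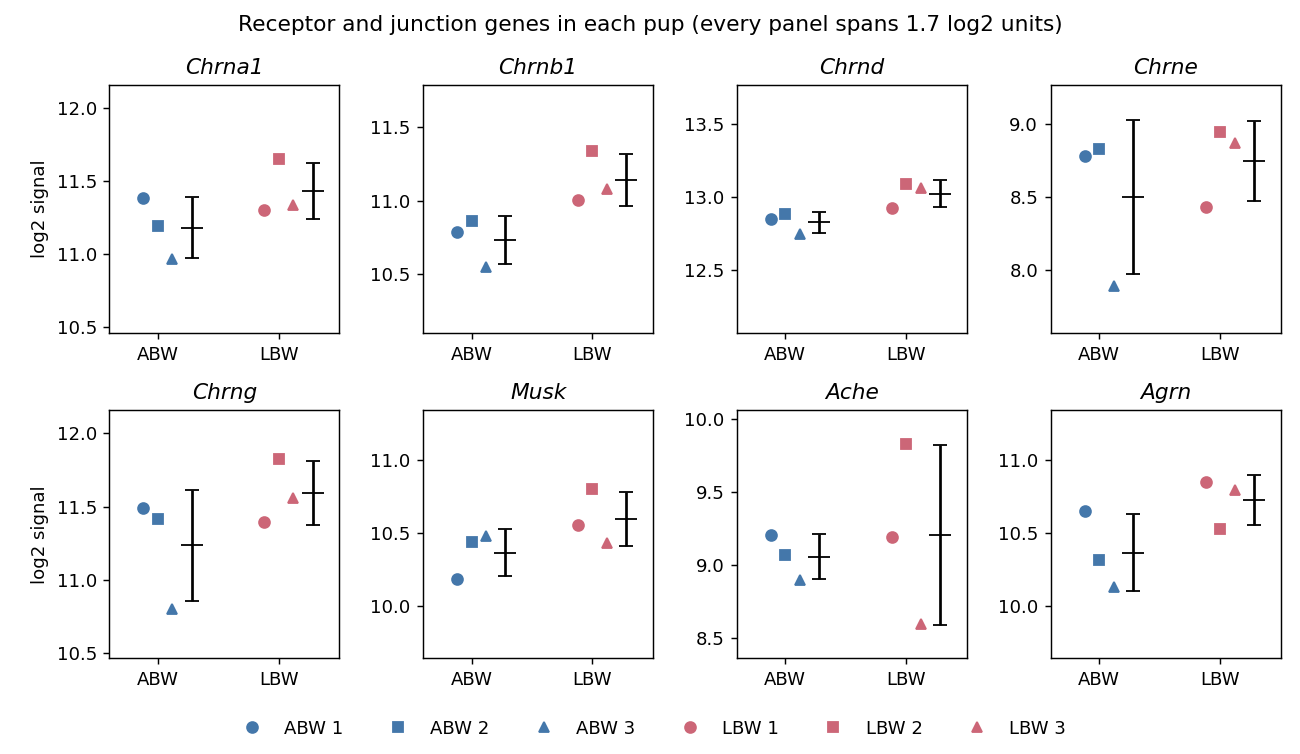
Log2 signal (vertical axis) of the 8 genes in each pup, ABW in blue and LBW in red, with the symbol giving the pup number. Black bars are the mean and SD of the 3 pups of a group. LBW 2 is the highest pup in 7 panels and ABW 3 the lowest in 6, and only *Chrnb1* and *Chrnd* show no overlap.

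The sequences upstream of the receptor subunits and *Musk* are shown because these genes share E-boxes there, and because only the promoters of *Chrnd* and *Chrne* hold an N-box. Each line gives the 150 bases before the RefSeq start of the gene in the assembly GRCr8, 5′ to 3′ on the strand of the gene, with E-boxes (CANNTG) and N-boxes (CCGGAA, or TTCCGG where it lies on the opposite strand) in capitals. The arrays were designed on an older build, and the sequences carry no array value.
Chrna1 (chr3:78877354-78877503, minus strand): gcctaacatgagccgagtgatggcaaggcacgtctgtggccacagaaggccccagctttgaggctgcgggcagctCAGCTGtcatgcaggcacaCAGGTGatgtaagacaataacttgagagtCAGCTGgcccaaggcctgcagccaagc
Chrnb1 (chr10:55015108-55015257, minus strand): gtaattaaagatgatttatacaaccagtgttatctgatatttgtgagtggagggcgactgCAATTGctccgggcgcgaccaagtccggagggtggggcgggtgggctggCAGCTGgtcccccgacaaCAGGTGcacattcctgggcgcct
Chrnd (chr9:95310166-95310315, plus strand): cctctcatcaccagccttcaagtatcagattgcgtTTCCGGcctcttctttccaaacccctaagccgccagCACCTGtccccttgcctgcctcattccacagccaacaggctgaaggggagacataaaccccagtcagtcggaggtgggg
Chrne (chr10:55834155-55834304, minus strand): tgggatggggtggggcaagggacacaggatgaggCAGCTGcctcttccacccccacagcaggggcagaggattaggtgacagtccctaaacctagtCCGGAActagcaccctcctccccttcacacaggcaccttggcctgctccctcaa
Chrng (chr9:95325834-95325983, plus strand): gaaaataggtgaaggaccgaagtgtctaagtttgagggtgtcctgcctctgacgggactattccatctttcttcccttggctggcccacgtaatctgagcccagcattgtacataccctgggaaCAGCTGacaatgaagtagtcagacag
Musk (chr5:77853586-77853735, plus strand): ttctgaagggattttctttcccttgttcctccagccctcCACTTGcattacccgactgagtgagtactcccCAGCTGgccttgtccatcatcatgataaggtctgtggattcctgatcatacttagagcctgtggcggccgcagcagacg

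An E-box reads as CANNTG on both strands. It was present in 6 of the 9 genes of the rule with a promoter sequence, compared to 46.6% of 33469 promoters of the same length, and it was absent from this window in *Ache*, *Agrn* and *Dok7*. The variant CAGCTG was found in 5 of the 9 (7.63% of all promoters), namely *Chrna1*, *Chrnb1*, *Chrne*, *Chrng* and *Musk*. In *Chrna1* it occurred at 75 and 27 bases before the start, and in *Chrng* at 26 bases. The single E-box of *Chrnd* is CACCTG, at 79 bases. An N-box on either strand was present in 9.73% of all promoters. It began 54 bases before the start in *Chrne* and 115 bases before it, on the opposite strand, in *Chrnd*, and no base of an N-box overlapped an E-box. These matches describe letters in a window and are not measured binding sites.

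*Agrn* encodes agrin, the organizer of the postsynaptic membrane, of which the muscle fibre also makes a form. It was at 10.85, 10.53 and 10.79 in LBW 1, 2 and 3 and at 10.65, 10.31 and 10.13 in ABW 1, 2 and 3. LBW 2 was below ABW 1, so that the groups overlapped. The log2 difference was 0.36 (95% interval -0.03 to 0.75, adjusted p = 0.436 by limma), or 1.28-fold. *Agrn* was the only 1 of the 8 genes that was highest in a pup other than LBW 2.

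*Musk* encodes the kinase that agrin activates through Lrp4. Its values were 10.55, 10.80 and 10.43 in the LBW pups and 10.18, 10.43 and 10.48 in the ABW pups, in the order of their numbers. LBW 3 lay within the ABW values. A log2 difference of 0.23 (95% interval -0.09 to 0.55, adjusted p = 0.538 by limma) had an interval that includes 0, and it was 0.13 without LBW 2 and 0.14 without ABW 1.

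Of the subunits present in both the fetal and the adult receptor, *Chrna1* encodes alpha1, which carries most of the acetylcholine binding site. LBW 1, 2 and 3 gave 11.30, 11.65 and 11.34, and ABW 1, 2 and 3 gave 11.38, 11.19 and 10.96. ABW 1 was above LBW 1 and LBW 3. The log2 difference was 0.25 (SE 0.15, adjusted p = 0.546 by limma), and it was 0.14 without LBW 2 or without ABW 3.

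*Chrnb1* encodes beta1, which helps to couple the receptor to the scaffold protein rapsyn. LBW 1, 2 and 3 had 11.00, 11.34 and 11.08, and ABW 1, 2 and 3 had 10.78, 10.86 and 10.54. The lowest LBW pup was above the highest ABW pup, for which an exact permutation test gave a 2-sided p of 0.1. No smaller p can be had from 3 pups in each group. The LBW mean was 11.14 ± 0.18 (SD, n = 3) and the ABW mean 10.73 ± 0.16 (SD, n = 3). *Chrnb1* had the largest log2 difference of the 8, at 0.41 (SE 0.13, adjusted p = 0.323 by limma). The fold of 1.33 (95% interval 1.07 to 1.66) stayed under 1.5. The difference was smaller without LBW 2 (0.31) and larger without LBW 1 (0.48).

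*Chrnd* encodes the delta subunit. It varied least among the pups, with 12.92, 13.09 and 13.06 in the LBW and 12.85, 12.88 and 12.75 in the ABW pups. The groups did not overlap, but the gap between LBW 1 and ABW 2, the nearest pups, was narrower than the SD of each group. The log2 difference was 0.20 (95% interval -0.02 to 0.42, adjusted p = 0.440 by limma). This interval does not include 1.5-fold, since its upper end is 1.33-fold.

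*Chrng* encodes the fetal gamma subunit. Its log2 signal was 11.40, 11.82 and 11.56 in LBW 1, 2 and 3 and 11.49, 11.42 and 10.80 in ABW 1, 2 and 3. ABW 3 lay apart below all other pups, and LBW 1 was below both other ABW pups. The log2 difference of 0.36 (95% interval -0.15 to 0.87, adjusted p = 0.541 by limma) was 0.14 without ABW 3.

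*Chrne* encodes epsilon, which replaces gamma in the adult receptor. It was at 8.43, 8.94 and 8.87 in the LBW pups and at 8.78, 8.82 and 7.89 in the ABW pups, so that ABW 3 was again the lowest. The groups overlapped, and the log2 difference was 0.25 (95% interval -0.42 to 0.92, adjusted p = 0.761 by limma). Without ABW 3 it turned to -0.05. Of the 8 genes, 6 were above the array median in every pup, and *Chrne* and *Ache* were not.

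Among 1667 named features with a range over the pups of at least 0.8 times that of *Chrne*, the feature nearest to *Chrne* was *Chrng*. After each gene was centred on its mean over the 6 pups, *Chrng* and *Chrne* were never further apart than 0.20 on the log2 scale in any pup. *Xk*, which encodes a membrane protein of red cells and muscle, followed with a largest gap of 0.22, and *Fbrsl1* with 0.23. The feature nearest to *Chrng*, out of 1743, was *Xk*, with a largest gap of 0.06 over the 6 pups, followed by *Enah*, an actin regulator, with 0.13, and the mitochondrial carrier gene *Slc25a34* with 0.14. Their likeness is over 6 pups only and is given as a description.

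The exchange of gamma for epsilon was read as the log2 signal of *Chrng* minus that of *Chrne* within each pup. A lower value stands for relatively more of the adult subunit. Because each gene's probe brightness is the same on all arrays, the values can be compared between pups, but their size does not give the ratio of the transcripts. The difference within a pup was 2.96, 2.88 and 2.69 in LBW 1, 2 and 3 and 2.71, 2.59 and 2.90 in ABW 1, 2 and 3. LBW and ABW pups were interleaved. LBW pups had a mean of 2.84 ± 0.14 (SD, n = 3) and ABW pups one of 2.74 ± 0.16 (SD, n = 3), a difference between groups of 0.11 (SE 0.12, exact permutation test, 2-sided p = 0.5). This is smaller than the spread among the pups of either group.

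Relative to the mean of the constant subunits *Chrna1*, *Chrnb1* and *Chrnd*, neither of the exchanged subunits differed between the groups beyond the spread. For *Chrng* the difference between LBW and ABW was 0.07 (SE 0.15, exact permutation test, 2-sided p = 0.9), and for *Chrne* it was -0.04 (SE 0.25, exact permutation test, 2-sided p = 0.9). ABW 3 stood apart here too, at -0.62 for *Chrng* and -3.53 for *Chrne*, below all other pups in both. ABW 3 was thus low in both genes also relative to its own constant subunits. Without it the difference was -0.07 for *Chrng* and -0.26 for *Chrne*.

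**Figure D2:**
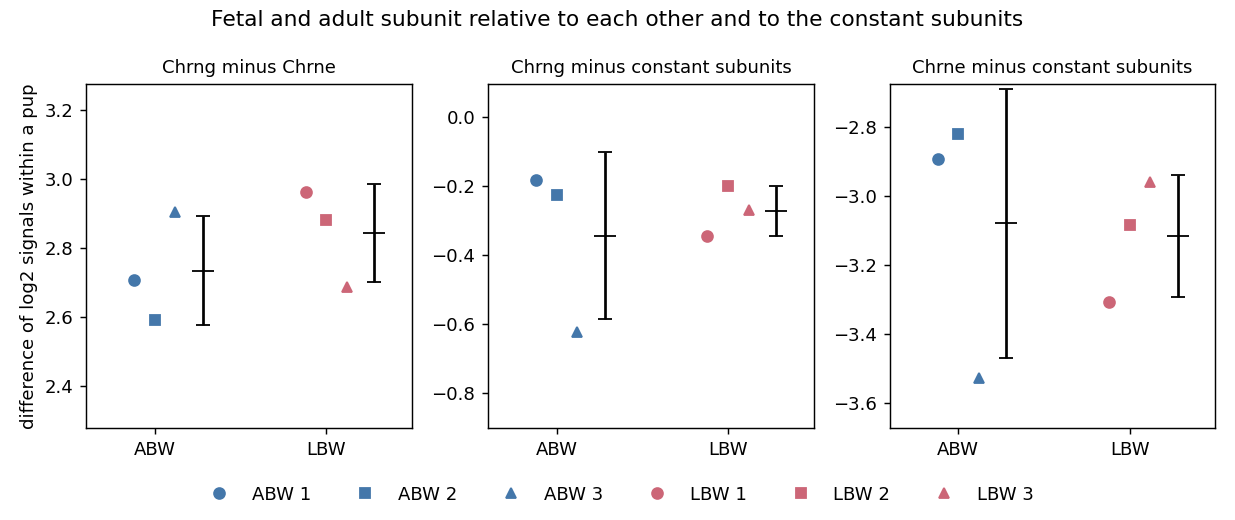
Difference of log2 signals within each pup (vertical axis) for *Chrng* minus *Chrne* (left), and for *Chrng* (middle) and *Chrne* (right) minus the mean of *Chrna1*, *Chrnb1* and *Chrnd*. Symbols and black bars (mean and SD, n = 3) are by group and pup; LBW and ABW pups overlap in all panels, and ABW 3 is the lowest pup in the middle and right panels.

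*Ache* encodes acetylcholinesterase, which ends transmission by splitting acetylcholine in the synaptic cleft. It was the most uneven of the 8 genes in LBW pups, with 9.19, 9.83 and 8.59 in LBW 1, 2 and 3, while the ABW pups were at 9.20, 9.07 and 8.90. All 3 ABW values lay between LBW 3 and LBW 2. The log2 difference was 0.15 (95% interval -0.57 to 0.86, adjusted p = 0.878 by limma), and it became -0.16 without LBW 2.

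The other genes of the synapse were read from 6 lists of 75 genes, of which 52 had a matched row. Of the 52, 2 were past the threshold of the study by limma, both higher in LBW, where 2.38% of all features were called higher and 1.89% lower. These were *Lrp4* and *Runx1*. Neither had an adjusted p under 0.05 by limma. At an unadjusted p under 0.05 by limma, 6 of the 52 were higher and 0 lower, compared to 5.63% and 6.73% of all features. The median log2 difference of the 52 genes was 0.04. All LBW pups lay above all ABW pups in 6 of the 52, an order found in 7.27% of all features. The opposite order, in 10.1% of all features, was found in 1, the dim *Chrna2*. The number past the threshold was 4 without LBW 2, without LBW 3 or without ABW 1, and it was 1 (*Lrp4*) without ABW 3.

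*Lrp4*, the agrin receptor on the muscle fibre, was at 10.15, 10.38 and 10.53 in LBW 1, 2 and 3 and at 9.69, 9.63 and 9.82 in ABW 1, 2 and 3. All LBW pups were above all ABW pups. The log2 difference was 0.64 (SE 0.12, adjusted p = 0.239 by limma), or 1.55-fold, and at 0.55 without LBW 3 it was short of the fold criterion. In the list of agrin-MuSK signalling and synaptic basal lamina, 1 of 9 genes was past the threshold, and the median difference was 0.08. The adaptors *Crkl* and *Crk*, which bind phosphorylated Dok7, had log2 differences of -0.0037 and -0.16 and were not past it.

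*Runx1* encodes a transcription factor that muscle switches on when it loses its nerve. It was at 10.27, 10.55 and 10.46 in the LBW and at 9.85, 9.92 and 9.49 in the ABW pups. The groups did not overlap, and the log2 difference was 0.68 (SE 0.14, adjusted p = 0.250 by limma). Without ABW 3 it was 0.54 and no longer past the threshold. Whether the signals of *Lrp4* and *Runx1* came from muscle fibres or from other cells of the sample was not tested.

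In the whole list of activity and denervation responsive genes, 1 of 7 was past the threshold, 5 had a higher mean in LBW, and the median difference was 0.30. *Ncam1*, the neural cell adhesion molecule of immature and denervated fibres, had 0.48 (SE 0.18, adjusted p = 0.359 by limma), and *Myog*, the myogenic factor that activates the receptor genes, 0.25 (SE 0.12, adjusted p = 0.454 by limma). *Ncam1* and *Myog* overlapped between the groups, and *Ncam1* was past the threshold without LBW 2 (0.59) and without ABW 1 (0.61).

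The scaffold under the junctional folds had 6 genes with a row and 0 past the threshold by limma, with 2 at an unadjusted p under 0.05 and a median difference of 0.29. *Plec*, which encodes the linker plectin, was at 13.01, 12.84 and 13.14 in the LBW and 12.63, 12.44 and 12.33 in the ABW pups. All LBW pups were above the ABW pups, and the fold of 1.44 (adjusted p = 0.264 by limma) was short of 1.5. *Plec* was past the threshold without LBW 2 (0.61) and without ABW 1 (0.61). *Cav3*, which encodes the muscle caveolin, differed by -0.005. *Dmd* (dystrophin) and *Utrn* (utrophin, the dystrophin relative of the synapse) were singled out after their values were seen, since they were the other genes of this list without overlap. Their log2 differences were 0.31 (adjusted p = 0.301 by limma) and 0.26 (adjusted p = 0.498 by limma). In this list 3 of the 6 genes thus had all LBW above all ABW pups, compared to 7.27% of all features.

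In the list of neuregulin-ErbB signalling and synapse-specific transcription, 0 of 5 genes were past the threshold by limma and 1 had an unadjusted p under 0.05. This was *Gabpb1*, which encodes a subunit of the N-box factor GABP. It was at 10.25, 10.42 and 9.93 in the LBW and at 9.80, 9.86 and 9.90 in the ABW pups, without overlap although LBW 3 was close to ABW 3. The log2 difference was 0.34 (SE 0.14, adjusted p = 0.391 by limma). For the neuregulin receptor gene *Erbb2* it was 0.14 (adjusted p = 0.791 by limma), and between 0.0075 (without LBW 2) and 0.30 (without LBW 1) with 1 pup left out.

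**Figure D3:**
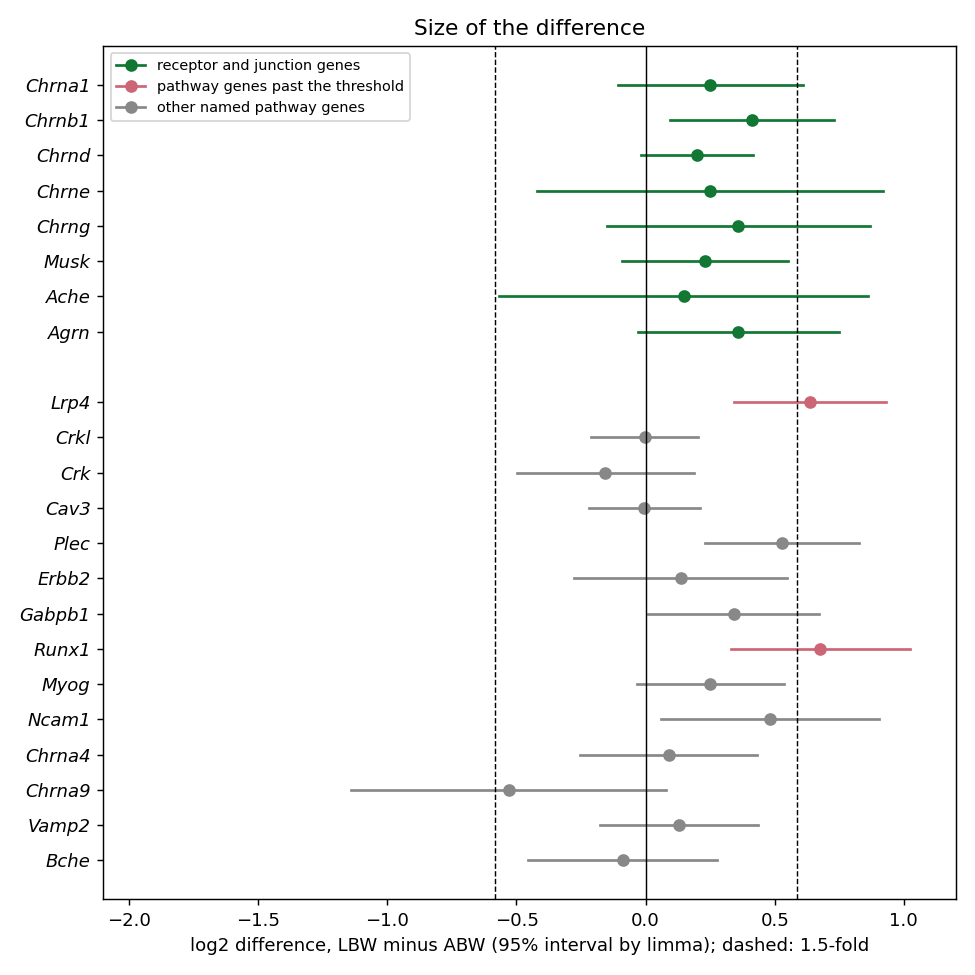
Log2 difference of LBW minus ABW (horizontal axis, point) with its 95% interval by limma (line) for the 8 receptor and junction genes (green) and the named genes of the other lists (red past the threshold of the study, grey not). The dashed lines mark 1.5-fold; all 8 green points lie between 0 and the upper dashed line, and *Lrp4* and *Runx1* lie beyond it.

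The receptor family also holds further subunits, which were listed as neuronal and most of which form receptors in neurons. All 11 had a row, 0 were past the threshold by limma in either direction, 0 had an unadjusted p under 0.05, and the median difference was -0.05. On all 6 arrays, 8 of them were among the dimmest 25% of features, below signals of 6.17 to 6.22, where 20.1% of all features lay. *Chrna4* was above the array median in every pup, with a log2 difference of 0.09 (adjusted p = 0.840 by limma). *Chrna9* was at 6.35, 6.20 and 7.16 in LBW 1, 2 and 3 and at 7.00, 7.27 and 7.04 in ABW 1, 2 and 3. LBW 3 alone reached the ABW values, and the difference of -0.53 (adjusted p = 0.460 by limma) was past the threshold only without LBW 3 (-0.82) or with array weights (-0.66).

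Of the cholinergic nerve terminal list, 14 of 15 genes had a row and 0 were past the threshold or at an unadjusted p under 0.05 by limma. The median difference was 0.0029. On all arrays, 3 of the 14 were among the dimmest 25% of features, a share near that of all features (20.1%). Above the array median on all arrays were only 2 of the 14, *Vamp2* and *Bche*, compared to 12062 of 26299 features. How far the others lay above background is unknown. The RNA was that of muscle samples, and how much of the signals of this list came from nerve was not tested. *Vamp2*, a vesicle protein gene, differed by 0.13 (adjusted p = 0.725 by limma) and *Bche*, encoding butyrylcholinesterase, by -0.09 (adjusted p = 0.853 by limma).

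In bulk muscle, fewer cells of a type and less RNA per cell cannot be told apart. Of the skeletal muscle markers, which include *Acta1* and *Ckm*, 14 of 15 were above the array median in every pup, and 0 of the 15 with a row were past the threshold by limma, with 0 at an unadjusted p under 0.05. Their mean relative to the ABW mean was 0.04, 0.05 and 0.05 in LBW 1, 2 and 3 and 0.05, -0.04 and -0.01 in ABW 1, 2 and 3. Single markers went both ways, from -0.24 in *Actn3* to 0.41 in *Myh7*, and 9 of the 15 had a higher mean in LBW. In 2 of them, *Des* and *Tnni1*, all LBW pups lay above all ABW pups (7.27% of all features). With each array centred on these markers, all 8 receptor and junction genes were higher in LBW, by 0.10 to 0.36. Because the marker means differed so little between pups, the centring could shift each gene only slightly. *Acta1*, at 15.15 to 15.41, also lay near the highest signals of the arrays (15.18 to 15.49), where a change may not show. The centring was therefore not a test of muscle content. The markers of embryonic muscle (3 genes with a row) had a median difference of 0.08, and those of Schwann cells, which cover the nerve, of 0.02, with 0 of 10 past the threshold and 1, *S100b*, at an unadjusted p under 0.05.

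Averaged over the 8 genes and relative to the ABW mean, LBW 1, 2 and 3 were at 0.17, 0.47 and 0.18, and ABW 1, 2 and 3 at 0.13, 0.09 and -0.23. LBW 1 and LBW 3 thus lay close above ABW 1, and the distance between the groups came mostly from LBW 2 at the top and ABW 3 at the bottom. Over all features, 2.38% were past the threshold and higher in LBW, and 1.89% were past it and lower. Of the 10 bone markers with a row (of 12 listed), 5 were past the threshold, all higher in LBW. Their mean reached 2.86 and 3.74 in LBW 1 and LBW 3 but 0.47 in LBW 2, against -0.12 to 0.15 in the ABW pups. Of the 8 receptor and junction genes, 7 were highest in LBW 2, the LBW pup with the lowest bone marker signal. *Agrn* was instead lowest in LBW 2 among the LBW pups, as were *Plec* and *Ncam1* of the other synaptic lists. Higher in LBW and past the threshold were also 1 of 4 cartilage, 2 of 5 osteoclast and 3 of 3 neutrophil precursor markers. The mean of the cartilage markers was at 0.94, -0.15 and 1.60 in LBW 1, 2 and 3, so that LBW 2 lay within the ABW values (-0.32 to 0.18). Of 10 adipocyte markers 3 were lower and past the threshold, 1 had a higher mean in LBW, and the median difference was -0.57. Of the 6 macrophage and 3 erythroid markers with a row, 0 were past the threshold by limma, and 0 had an unadjusted p under 0.05. The part of other tissues in the results of the receptor and junction genes, and in those of the other synaptic genes, was not tested.

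**Figure D4:**
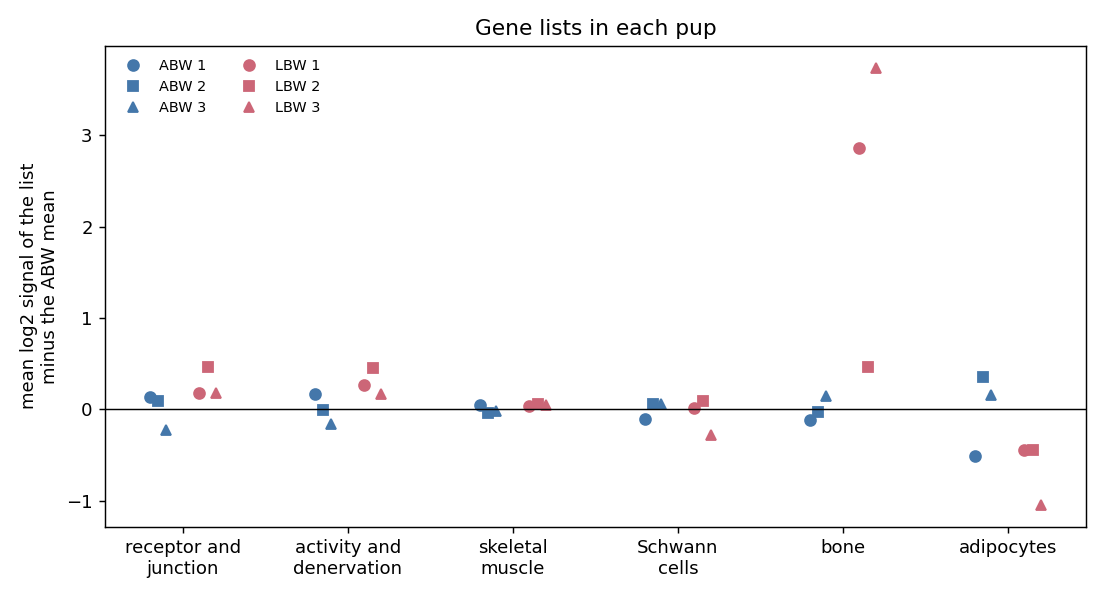
Mean log2 signal of each gene list relative to the mean of the ABW pups (vertical axis) in each pup, ABW in blue and LBW in red. The receptor and junction genes reach 0.47 in LBW 2 and -0.23 in ABW 3, the muscle markers lie between 0.04 and 0.05 in LBW pups, and the bone markers reach 3.74 in LBW 3.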

How the data were processed

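Arrays of the NimbleGen rat design, with 5 probes per transcript and a single dye (Cy3), were hybridized with muscle RNA of 6 pups, 3 LBW and 3 ABW. The authors used R scripts of their own and Bioconductor for normalization (RMA per the labels) and deposited a log2 value for each transcript and pup. Detection calls were not used here, so that how far a dim signal lies above background is unknown. Precision is limited by the number of arrays. Array medians lay between 8.70 and 8.76.

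Of 26419 rows, 9747 were named through a RefSeq gene table (GRCr8), and rows of a symbol were averaged, which gave 26299 features. LBW was compared with ABW over all features by lmFit and eBayes of limma (version 3.58.1, R 4.3.3), 2-sided and with Benjamini-Hochberg adjustment, tested on simulated data. Single values were compared by an exact permutation test. The methods' test is the 2-tailed Student's test of the study, which names no test for the arrays alone.

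The genes named are all members with a row and, of each list of other synaptic genes, those past the threshold of the study (at most 4) and the 2 brightest others. Likeness was the smallest largest gap over the 6 pups. A single listed gene is not reported here and was left out of the lists' counts. The members and lists were chosen with earlier results of these data known. The counts past the threshold and the log2 differences of the named genes were recomputed without single pups, with the replicate number as a block, after quantile normalization or centring (array median, muscle markers), without the dimmest 25% of features, with another variance model (trend, robust) or array weights, by the methods' test, and on single rows. *Chrng* minus *Chrne* was recomputed without single pups, with the block, after quantile normalization or median centring and by the methods' test, and the differences from the constant subunits without single pups only, which was chosen after seeing the data. List medians and likeness were not recomputed.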

Additional observations from a re-analysis of the deposited data

How the results depend on the processing

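Of the 8 receptor and junction genes, 0 were past the threshold of the study under all 16 alternatives. Of 128 log2 differences (8 genes under 16 alternatives), 126 kept their direction. The block, the filter of dim features, the variance models (trend, robust), the methods' test and single rows leave these differences unchanged by construction. Their direction could change only under the remaining alternatives. *Chrne* ranged from -0.054 (without ABW 3) to 0.41 with 1 pup left out, and *Ache* from -0.16 (without LBW 2) to 0.45. *Chrng* minus *Chrne* lay between 0.04 and 0.19 whichever pup was left out. The number of other synaptic genes past the threshold, 2, ranged from 1 (without ABW 3) to 4 (without LBW 2, without LBW 3, without ABW 1) and was 5 with array weights. Differences near 0 turned sign: *Crkl* ranged from -0.036 to 0.039 with 1 pup left out (0.039 without LBW 1, 0.021 without ABW 2, 0.0036 without ABW 3) and was 0.0013 with quantile normalization; *Cav3* ranged likewise from -0.046 to 0.038 (0.019 without ABW 1, 0.012 without ABW 2) and was 0.031 with quantile normalization and 0.0041 with array weights. *Chrna4* ranged from -0.0044 (without LBW 2) to 0.21, and *Bche* from -0.22 to 0.0075 (without LBW 3). *Crk* ranged from -0.29 to -0.08, *Vamp2* from 0.036 (without LBW 2) to 0.19 and *Chrna9* from -0.82 to -0.34. Relative to the constant subunits, *Chrng* ranged from -0.067 (without ABW 3) to 0.15, and *Chrne* from -0.26 to 0.093 (0.059 without LBW 1, 0.057 without ABW 1, 0.093 without ABW 2). The cause was not tested.

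The replicate numbers were not used as pairs in the main comparison. The correlations of same-numbered pups' deviations from their group means were low, at 0.087, 0.104 and 0.055. Each of the 6 pups nevertheless correlated best, among the pups of the other group, with its own number. The same correlations serve the LBW and the ABW pups, so that these matches are not independent of each other. Whether same-numbered pups shared a litter is not known. With the replicate number as a block, 0 of the 8 genes and 3 of the other synaptic genes were past the threshold. Over all features, 1230 were then called in place of 1124. The difference of 0.11 in *Chrng* minus *Chrne* cannot change with the block (exact sign-flip permutation test, 2-sided p = 0.5, where 0.25 is the smallest possible). Median centring shifts both genes of a pup alike, and the methods' test uses the same values, so that these also leave it unchanged by construction.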
